A study of Mus musculus with 2 samples.

Results

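The cells described here were Ly6c2+ Chil3+ monocytes of dystrophic mouse hind limb muscle, 222 of 8010 cell barcodes in a pair of single-cell RNA libraries, 112 in the Ctrl library and 110 in the YY1 dKO library. They were chosen by a rule on raw UMI counts (a UMI is a tag that marks 1 captured RNA molecule). A member had UMIs of at least 500 genes and of at least 2 of the myeloid genes Csf1r, Adgre1, Fcgr1, C3ar1 and Cd68. It had no UMI of Pdgfra, Cdh5, Cd3e or Cd79a, and UMIs of fewer than 3 of the 6 proliferation genes Mki67, Top2a, Birc5, Cdk1, Ccna2 and Ube2c. It held at least 5 UMIs of Ly6c2 and Chil3 together and fewer than 10 UMIs of the complement genes C1qa, C1qb and C1qc together. The conditions before the last pair left 1328 myeloid cells in Ctrl and 1055 in dKO, and the last pair separated the monocytes from the rest of them. Because the members were selected on these counts, their Ly6c2, Chil3 and C1q levels are a description and not a finding.

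Classical monocytes are made in the bone marrow, circulate with a high surface level of Ly6C and enter injured tissue through the chemokine receptor CCR2, which senses CCL2 and related ligands. In injured or dystrophic muscle they clear debris, release inflammatory mediators and mature into macrophages, losing Ly6C and gaining complement C1q and lipid-handling genes on the way. They also respond strongly to interferons, which switch on a common set of antiviral genes through transcription factors of the IRF family and others.

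The study asked how loss of the transcription factor YY1 in muscle stem cells (MuSCs) changes the cells around them in mdx mice, which lack dystrophin. The Ctrl library came from Pax7CreERT2/R26YFP; Yy1+/+; mdx mice and the dKO library from Pax7CreERT2/R26YFP; Yy1f/f; mdx mice. Both groups carried the mdx mutation, the tamoxifen-inducible Cre, which the Pax7 promoter drives in MuSCs, and the YFP reporter, and both received tamoxifen. Limb muscles were taken about a month after tamoxifen from mice of the same sex and age, the cells of several mice were pooled, red cells were lysed, and live cells were sorted by propidium iodide exclusion and loaded on the 10x Chromium system. Pax7 marks MuSCs and is not a gene of monocytes.

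There was 1 library per group, and the cells of the pooled mice could not be told apart. No test between groups was possible, and all intervals below are 95% counting intervals that cover counting error only, not the spread between mice. Those of levels and ratios also leave out the spread of counts between cells. The libraries held 45556596 UMIs over 4527 barcodes in Ctrl and 33815155 UMIs over 3483 barcodes in dKO. The monocytes had a median of 7656.5 UMIs per cell in Ctrl and 7475 in dKO, so their depth was close. In cells with UMIs of at least 2 of Pax7, Myf5, Myod1, Cdh15 and Chodl, Yy1 stood at 162 UMIs per 1000000 UMIs of these cells (CPM; 142 to 184) in 87 Ctrl cells and at 6.67 CPM (1.82 to 17.1) in 24 dKO cells. The monocytes kept Yy1, with 195 UMIs and 206 CPM (178 to 237) in Ctrl and 142 UMIs and 166 CPM (140 to 195) in dKO, a log2 ratio of -0.31 (-0.64 to 0.01).

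The Ly6c2 and Chil3 sum reached its threshold in different ways. In Ctrl, 22 members held at least 5 UMIs of Ly6c2 but not of Chil3, 37 of Chil3 but not of Ly6c2, 41 of each gene, and 12 only through the sum. In dKO these numbers were 35, 24, 35 and 16. Ly6c2 was at 0 in 19 Ctrl and 8 dKO members, and Chil3 was at 0 in 15 and 13, so a member was not always positive for both genes of the name. The median sum was 13 UMIs in Ctrl and 14 in dKO, with highest sums of 153 and 132. Just inside the threshold, 13 Ctrl and 12 dKO members held a sum of exactly 5, and just outside it 12 and 8 cells held a sum of 4. C1q counts of 8 or 9 were found in 4 and 3 members, and counts of 10 or 11 in 5 and 7 cells outside.

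**Figure D1:**
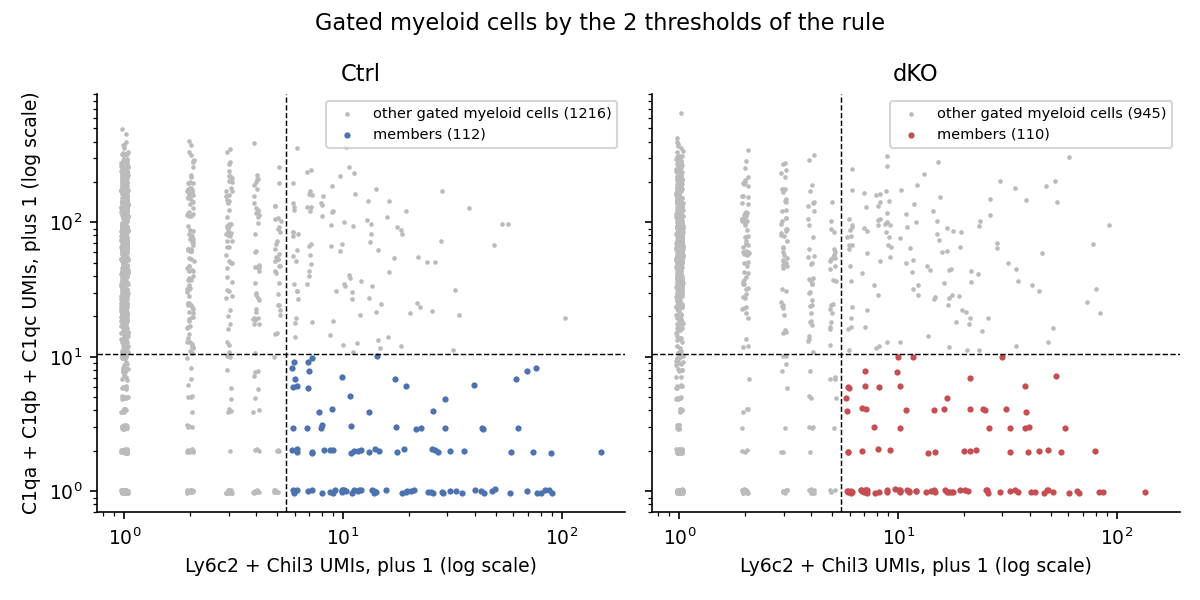
Each point is 1 gated myeloid cell of the Ctrl or dKO library, with its Ly6c2 plus Chil3 UMIs on the x axis and its C1qa, C1qb and C1qc UMIs on the y axis, both on a log scale after adding 1; the lines mark the rule. The 112 Ctrl and 110 dKO monocytes sit in the lower right, beside 108 and 132 cells with 10 or more C1q UMIs, and no gap separates them along either axis.

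The label was set beside markers that the rule did not use. Vcan, a large matrix proteoglycan, was found in 69 of 112 Ctrl and 55 of 110 dKO members before depth was equalised. Ccr2, the receptor that brings monocytes into tissue, was found in 71.4% and 70.9%. Cells were then thinned to 2000 UMIs each, and 1 shallower member of Ctrl and 2 of dKO were set aside. At that depth Ccr2 was found in 43.2% (33.9 to 53.0) of Ctrl and 45.4% (35.8 to 55.2) of dKO members. None of 617 and 612 fibro-adipogenic progenitor (FAP) reference cells, which should lack the gene, held a Ccr2 UMI, which allows shares of up to 0.596% and 0.601%. Clec4e, a receptor for cell debris and microbial glycolipids, was found in 61.3% and 64.8% of thinned members and in at most 0.162% of the FAPs. Slpi, a secreted protease inhibitor, was found in 37.8% and 38.9% of thinned members and in 0.648% and 0% of the FAPs. F10, coagulation factor X, was found in 29.7% and 28.7% of thinned members and in 0% of the FAPs of each library. Of endothelial reference cells, 0% and 2.10% held Slpi and 0.549% and 0.699% held F10. Vcan and Plac8 do not separate monocytes from stroma, since 56.6% and 55.4% of the FAPs held Vcan and 31.4% and 50.5% held Plac8. The FAPs serve as a background for free RNA, so these shares cannot tell monocytes from macrophages or neutrophils. Vcan, Slpi, Clec4e and F10 were also chosen as markers with earlier results of these data known.

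The label failed for 7 Ctrl members. These 7 cells held UMIs of at least 5 of the 7 neutrophil genes Ly6g, Retnlg, Cxcr2, Mmp8, Camp, Ngp and Ltf, and 6 of them held all 7, whereas no dKO member held 5. Ngp, which encodes a neutrophil granule protein, ranged from 21 to 338 UMIs in them with a median of 128. S100a9, a calcium-binding alarmin abundant in neutrophils, ranged from 103 to 977 UMIs with a median of 692. They met the rule with 4 to 38 Ly6c2 UMIs, 1 to 115 Chil3 UMIs and 1 or 2 Csf1r UMIs, and Ccr2 was found in 3 and Vcan in 4 of them. Of the 2822 UMIs of the 7 genes in Ctrl members, 97.7% were in these cells, and so were 99.2% of the 8104 UMIs of S100a8 and S100a9. Leaving them out gave 105 Ctrl members against 110. Results include these cells unless stated, and several are also given without them.

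**Figure D2:**
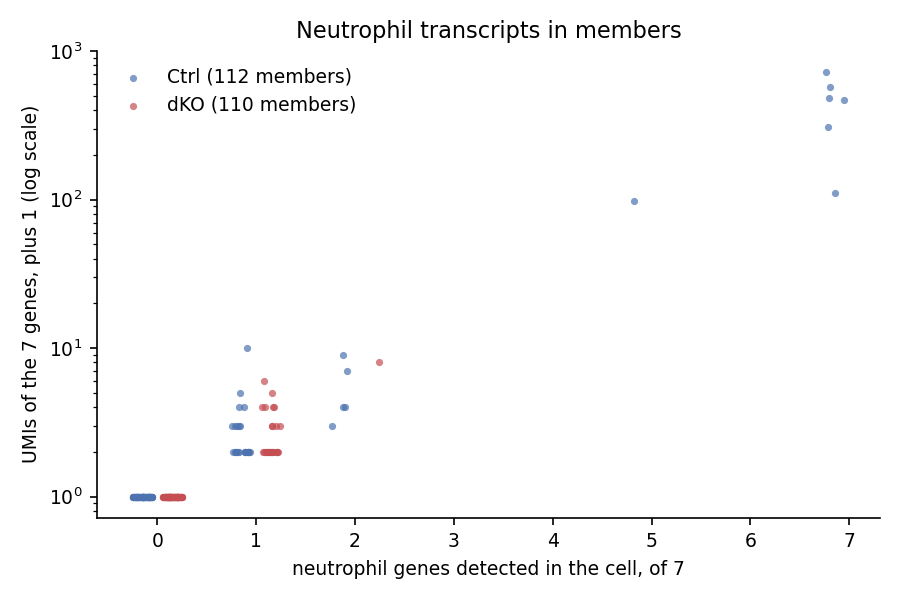
Each point is 1 monocyte of the Ctrl or dKO library, with the number of the 7 neutrophil genes it held on the x axis and its UMIs of these genes, plus 1, on a log scale on the y axis. The 7 Ctrl cells with at least 5 of the genes stand apart at the upper right, and no dKO cell is among them.

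Macrophage genes were present in the members, with 8102 UMIs of the 17 listed genes in Ctrl and 9210 in dKO, 8549 and 10739 CPM. Genes of cell types other than macrophages and neutrophils were fewer. Over all of them, the dendritic cell genes gave 64 UMIs in Ctrl and 78 in dKO, the T and NK cell genes 1 and 10, the B cell genes 0 and 7, the endothelial genes 20 and 11, and the muscle genes 13 and 8. Eosinophil genes and basophil and mast cell genes were at 0 in both libraries. The FAP genes Col1a1, Col3a1, Dcn and Lum gave 688 and 374 UMIs, of which 3 Ctrl cells held 520 and 1 dKO cell held 257. The nonclassical monocyte genes gave 460 and 235 UMIs.

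Set against the other gated myeloid cells of the same library, 15 genes led in the monocytes. The rule itself fixed the ratios of Chil3, which encodes a secreted chitinase-like protein, and of Ly6c2, and the other genes come from the same counts, so these ratios describe the members and were not tested. Vcan stood at 687 CPM in Ctrl members against 35.9 CPM in the other cells, a ratio of 19.1 (16.9 to 21.7), and at 511 against 42.4 CPM in dKO, a ratio of 12.05 (10.4 to 13.9). Hp, which encodes the haemoglobin-binding protein haptoglobin, had ratios of 16.7 (14.1 to 19.9) and 12.2 (9.34 to 15.9). Without the 7 granule-bearing cells the Ctrl ratio of Hp was 14.0. Plac8, a small cysteine-rich protein, had ratios of 14.2 (13.1 to 15.3) and 5.93 (5.52 to 6.36). Its level in members was close in the libraries, at 1352 and 1490 CPM, while the other cells stood at 95.5 CPM in Ctrl and 251 CPM in dKO. Slpi went the opposite way, with ratios of 7.57 and 15.8, since members were at 676 and 1026 CPM and the other cells at 89.3 and 65.0 CPM.

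The remaining leading genes had smaller ratios. Gsr, glutathione reductase, had ratios of 7.24 in Ctrl and 5.51 in dKO, Thbs1, the matrix protein thrombospondin-1, of 4.92 and 5.15, and F10 of 4.22 and 4.76. Clec4e had ratios of 3.91 and 4.46, Ccr1, a receptor for inflammatory chemokines, of 3.17 and 4.01, and the neutrophil-attracting chemokine gene Cxcl3 of 3.74 and 5.52. Complement C3 (5.25 and 3.87), the lactate exporter Slc16a3 (5.80 and 3.85) and the iron sensor Fbxl5 (3.52 and 3.27) completed the 15. Without the granule-bearing cells the Ctrl ratios of Slpi, Gsr and Fbxl5 were 6.95, 6.35 and 2.94.

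The 10 genes lowest in the monocytes included the 3 C1q genes, which the rule fixed. Ccl8, a chemokine of tissue macrophages, stood at 6.33 CPM in Ctrl members against 309 CPM in the other gated cells, a ratio of 0.0205 (0.00752 to 0.0447), and at 11.7 against 791 CPM in dKO, a ratio of 0.0147 (0.00707 to 0.0271). Mmp12, macrophage elastase, had ratios of 0.0347 and 0.0994, and Gas6, a ligand that bridges dying cells to their receptors, of 0.130 and 0.0852. Retnla, a gene of alternatively activated macrophages, had ratios of 0.135 and 0.0893, and Lyz1, Fcrls and Fxyd2 had ratios from 0.0386 to 0.132. The cells that differ most from the members by the rule, those rich in C1q, make up most of the comparison.

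Among the members, levels of monocyte and macrophage genes varied with the C1q count. In Ctrl, Vcan was at 733 CPM in members with no C1q UMI, 742 CPM with 1 to 3 and 467 CPM with 4 to 9, and it was at 53.0 CPM in cells with a Ly6c2 and Chil3 sum of at least 5 and 10 to 29 C1q UMIs. In dKO the same groups were at 494, 607, 347 and 326 CPM, so there the level past the boundary was close to that just inside it. Plac8 was at 1615, 1246 and 911 CPM in the Ctrl members and at 484 CPM past the boundary, and in dKO at 1650, 1551, 775 and 1063 CPM. Apoe, a lipid carrier that macrophages make in quantity, was at 1988, 2927 and 3052 CPM in the Ctrl members and 6227 CPM past the boundary. In dKO members it was at 5034, 1668 and 1954 CPM and past the boundary at 6097 CPM, so within the dKO members Apoe was highest where C1q was absent. Of the 2959 Apoe UMIs of all dKO members, 1 cell held 432 and the top 3 cells held 33.6%, so few cells weigh on these levels. Ms4a7, a macrophage membrane gene, stayed between 88.0 and 248 CPM in all member groups and reached 976 and 1077 CPM only in the cells with at least 30 C1q UMIs.

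**Figure D3:**
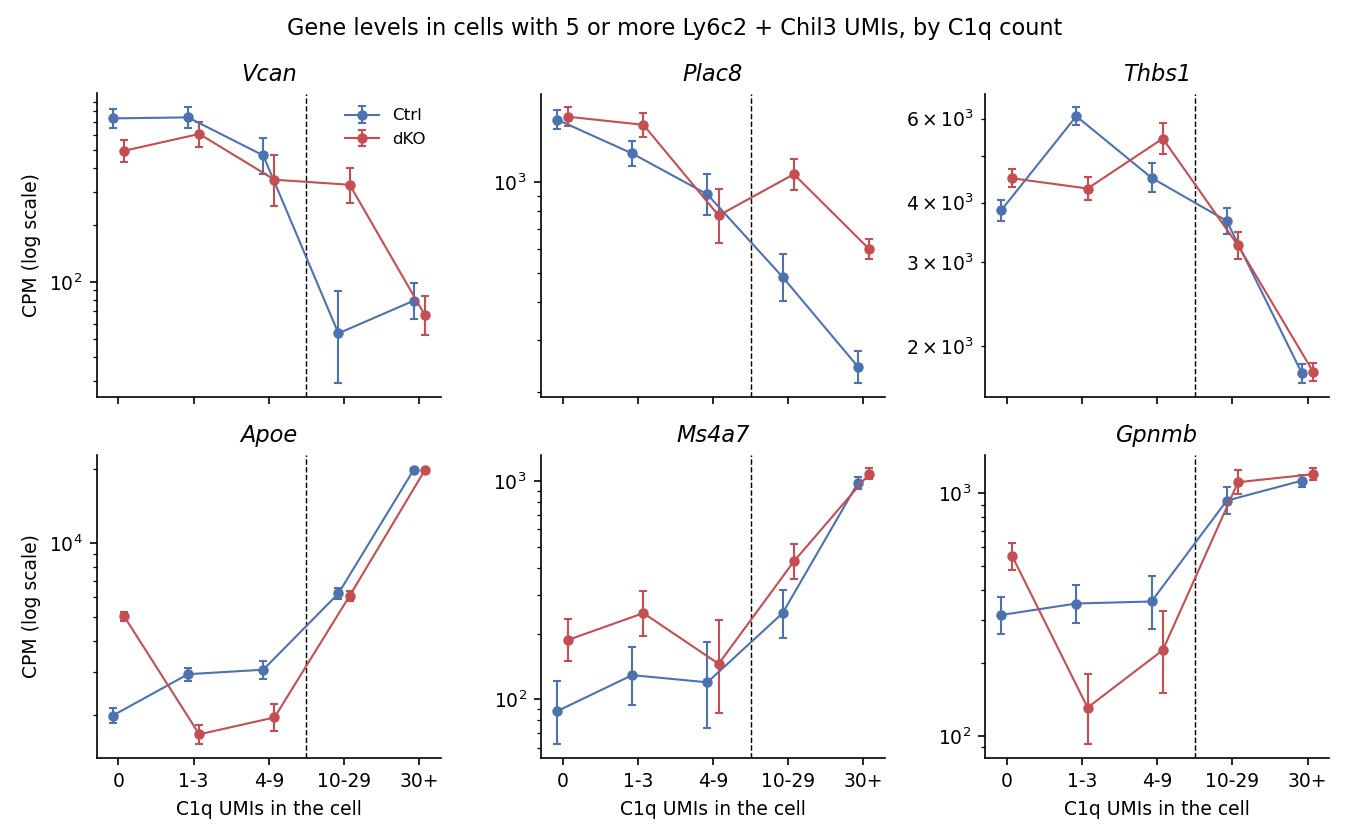
CPM of Vcan, Plac8, Thbs1, Apoe, Ms4a7 and Gpnmb in cells with a Ly6c2 plus Chil3 sum of at least 5, grouped by C1q UMIs (0, 1 to 3, 4 to 9, 10 to 29, at least 30), for Ctrl and dKO with exact Poisson intervals; the dashed line is the rule's boundary. Apoe and Ms4a7 are highest in the last group in each library, at 19775 and 19744 CPM for Apoe, and Vcan is lowest or near its lowest there.

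Levels also varied with the gene through which a member met the rule. In members with at least 5 UMIs of Ly6c2 alone, the 7 MHC class II genes, which present antigen to helper T cells, summed to 6906 CPM in Ctrl and 10282 CPM in dKO. Members with Chil3 alone had 869 and 1201 CPM, and those with each gene 2958 and 1426 CPM. These sums rested on few cells. H2-Aa had a median of 0 UMIs per member, and its top 3 cells took 49.3% of the H2-Aa UMIs of Ctrl members and 53.0% of those of dKO members. Of the 78 dendritic cell UMIs in dKO members, 74 were in the Ly6c2-alone cells. Cd74, the invariant chain that accompanies class II molecules, followed this order with 3519 and 4592 CPM against 410 and 648 CPM. The 20 chemokine genes had 8924 and 10820 CPM where Ly6c2 alone was reached and 18870 and 17606 CPM where Chil3 alone was reached. Members with each gene were at 9437 CPM in Ctrl and 19007 CPM in dKO, so the order of the member kinds differed between the libraries. The 20 respiratory chain genes were level, at 6449 CPM over all Ctrl and 6055 CPM over all dKO members and between 5893 and 6983 CPM in every group.

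The monocytes took a similar share of each library. They were 2.58% (2.13 to 3.10) of 4335 Ctrl cells with at least 500 genes and 3.30% (2.72 to 3.97) of 3329 such dKO cells, a difference of 0.721 percentage points (-0.0374 to 1.51). Of the gated myeloid cells they were 8.43% (7.0 to 10.1) and 10.4% (8.65 to 12.4), a difference of 1.99 points (-0.356 to 4.41). Both intervals include 0. Since Ly6c2 was higher in dKO cells, a count by Chil3 alone was added after seeing the data. It gave 78 and 59 members and differences of -0.027 and -0.281 points, of the opposite sign. Without the granule-bearing cells the differences were 0.882 (0.134 to 1.67) and 2.52 (0.20 to 4.92) points, and with C1q allowed up to below 20 UMIs they were 0.982 (0.164 to 1.83) and 2.78 (0.259 to 5.37), so that the counting interval includes or leaves out 0 depending on where the members are bounded. With 1 library per group none of these intervals tests the condition. The neighbouring cells with the same Ly6c2 and Chil3 sum but 10 or more C1q UMIs were 12.5% of gated dKO cells and 8.13% of gated Ctrl cells, 4.38 points apart (1.93 to 6.91). In these cells Ly6c2 had a log2 ratio of 1.66 (1.52 to 1.81) and Chil3 of -0.35 (-0.49 to -0.21). Both count towards the sum that bounds the set, and their part in its size was not tested.

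The dKO and Ctrl monocytes were then compared by the ratio of their summed CPM over the 2621 genes with at least 100 UMIs over the members of both libraries together. Of these, 213 (8.13%) were at least 1.5-fold higher in dKO and 86 (3.28%) at least 1.5-fold lower, without a test. The median gene had a log2 ratio of 0.05, and 55.2% of genes had a ratio above 1. Scaling by the median ratio instead gave 171 higher and 109 lower, a more even split, and leaving out the granule-bearing cells gave 207 and 71. The genes furthest up by the lower bound of their interval were Slamf7, Isg15, Clec2d, Rsad2, Acod1, Fgl2, Oasl1, Oasl2, Irf7 and Fnip2. Those furthest down were Ngp, Camp, Ltf, S100a9, Retnlg, S100a8, Lcn2, Wfdc21, Mgp and Cx3cr1.

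The interferon-induced genes were the clearest group. Of 42 listed genes, 24 had enough UMIs, and 19 of them (79.2%) were at least 1.5-fold higher in dKO monocytes, against 8.13% of all genes tested. None was 1.5-fold lower, and all 24 had a ratio above 1. Their median log2 ratio was 0.95, with Ifi204 next to it at 0.94 (0.70 to 1.18), against 0.05 over all genes tested. The highest value was 1.74 (1.38 to 2.11), for Rsad2, the antiviral enzyme viperin. Without the granule-bearing cells 18 of 23 were higher and the median was 1.10, and over all alternatives the median lay between 0.87 and 1.13. The other gated cells had the same direction, with medians of 1.34 in cells with both the Ly6c2 and Chil3 sum and C1q, 1.31 in cells with C1q only and 0.97 in cells with neither. Whether the size of the difference varied between these cell sets was not tested.

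Isg15, a ubiquitin-like protein that is conjugated to other proteins after interferon, gave 193 UMIs and 204 CPM in Ctrl members and 572 UMIs and 667 CPM in dKO members, a log2 ratio of 1.71 (1.47 to 1.95). It was spread over many cells, being found in 51 of 112 Ctrl and 82 of 110 dKO members. After thinning it was found in 30 of 111 and 54 of 108 members, in 7.62% and 22.9% of the FAPs, and in 28.0% and 46.2% of endothelial reference cells, so Isg15 was also more often found in dKO cells outside the myeloid gate. Rsad2 gave 85 and 257 UMIs, a log2 ratio of 1.74 (1.38 to 2.11), in 28 and 56 members, and lay between 1.13 and 2.61 over the alternatives. Irf7, the transcription factor that amplifies the interferon response, gave 102 and 263 UMIs, a log2 ratio of 1.51 (1.18 to 1.85). Oasl1 went from 59 to 169 UMIs with a log2 ratio of 1.66 and Oasl2 from 39 to 117 UMIs with a log2 ratio of 1.73, both relatives of the RNA-sensing oligoadenylate synthetases. Ifi27l2a, an interferon-induced gene that the list did not hold and that was chosen after its values were seen, gave 1832 and 3523 UMIs with a log2 ratio of 1.09 (1.01 to 1.17). Slfn4, a Schlafen gene of myeloid cells, had a log2 ratio of 1.41 (0.99 to 1.84) from 68 and 163 UMIs.

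**Figure D4:**
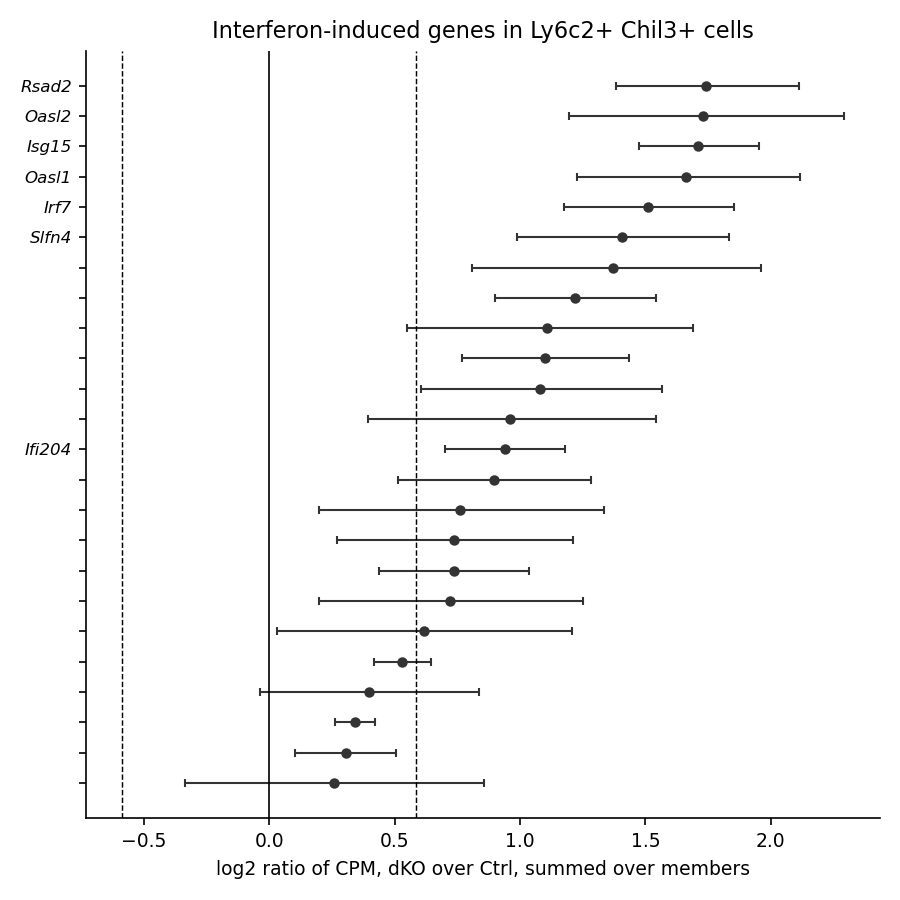
Log2 ratio of dKO over Ctrl CPM in monocytes for the 24 interferon-induced genes with at least 100 UMIs, in order of the ratio, with exact conditional counting intervals; genes named in the text are labelled, and dashed lines mark 1.5-fold in either direction. All 24 points lie right of 0, up to 1.74 for Rsad2, and 19 lie past the 1.5-fold line.

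To show what such genes carry at their starts, the promoters of Isg15, Rsad2 and Irf7 are printed for the 300 bases from 250 before to 50 after the annotated start, as RefSeq gives them on GRCm38.p6. They lie at chr4:156200769-156201068, chr12:26456403-26456702 and chr7:141266375-141266674, all on the minus strand, and are written 5′ to 3′ along the gene. Capitals mark every match, on either strand, to GAAANNGAAA, the repeated GAAA core of the interferon-stimulated response element, with overlapping matches joined.
Isg15: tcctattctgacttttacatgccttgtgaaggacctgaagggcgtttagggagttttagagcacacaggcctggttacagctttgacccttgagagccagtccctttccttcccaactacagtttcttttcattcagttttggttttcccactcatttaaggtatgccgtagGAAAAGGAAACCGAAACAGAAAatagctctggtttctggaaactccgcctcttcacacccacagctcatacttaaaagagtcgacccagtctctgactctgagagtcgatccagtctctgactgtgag
Rsad2: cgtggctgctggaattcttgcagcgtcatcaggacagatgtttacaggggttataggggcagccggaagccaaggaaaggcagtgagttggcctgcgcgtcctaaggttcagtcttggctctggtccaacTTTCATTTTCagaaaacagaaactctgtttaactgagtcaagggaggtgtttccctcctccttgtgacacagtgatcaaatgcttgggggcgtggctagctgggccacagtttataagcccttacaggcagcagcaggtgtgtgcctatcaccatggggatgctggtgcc
Irf7: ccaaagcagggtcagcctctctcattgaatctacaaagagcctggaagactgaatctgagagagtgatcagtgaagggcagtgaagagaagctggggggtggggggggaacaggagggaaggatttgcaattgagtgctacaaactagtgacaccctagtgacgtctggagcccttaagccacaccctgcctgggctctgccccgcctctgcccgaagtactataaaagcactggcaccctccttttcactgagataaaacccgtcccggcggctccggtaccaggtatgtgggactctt
The first matched base was at -78 from the start in Isg15 and at -120 in Rsad2. Irf7 had no match, which says only that these letters are not in this window. A match was found in 1079 of 27025 promoters (3.99%), in 104 of the 2105 tested genes with a promoter entry (4.94%) and in 18 of the 31 interferon-list genes with an entry (58.1%). Among list genes at least 1.5-fold higher in dKO monocytes it was found in 8 of 16, and among all tested list genes in 10 of 18. The list was made of known interferon-induced genes, so the motif's share is a property of the list and not of these cells.

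Counted cell by cell, the interferon difference was seen across the members. At 2000 UMIs per cell, Ctrl monocytes held 0 to 71 UMIs of the 42 genes with a median of 11, and dKO monocytes 2 to 59 with a median of 19. At least 10 UMIs were held by 59.5% (49.7 to 68.7) of Ctrl and 85.2% (77.1 to 91.3) of dKO members, so the ranges overlapped while the middle of the distribution was higher in dKO. Of the 4 gated cell sets the Ctrl monocytes had the highest median, against 7.5, 6 and 5.5 UMIs in the cells with both, with C1q only and with neither. In dKO the medians of those sets were 22, 16 and 12. Across members the interferon-induced UMIs rose with Ly6c2, a gene of the rule, at a Spearman rho of 0.505 in Ctrl and 0.481 in dKO. With Chil3, the other gene of the sum, rho was 0.057 and -0.136. The part of the selection on Ly6c2 in the order of the sets was not tested.

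**Figure D5:**
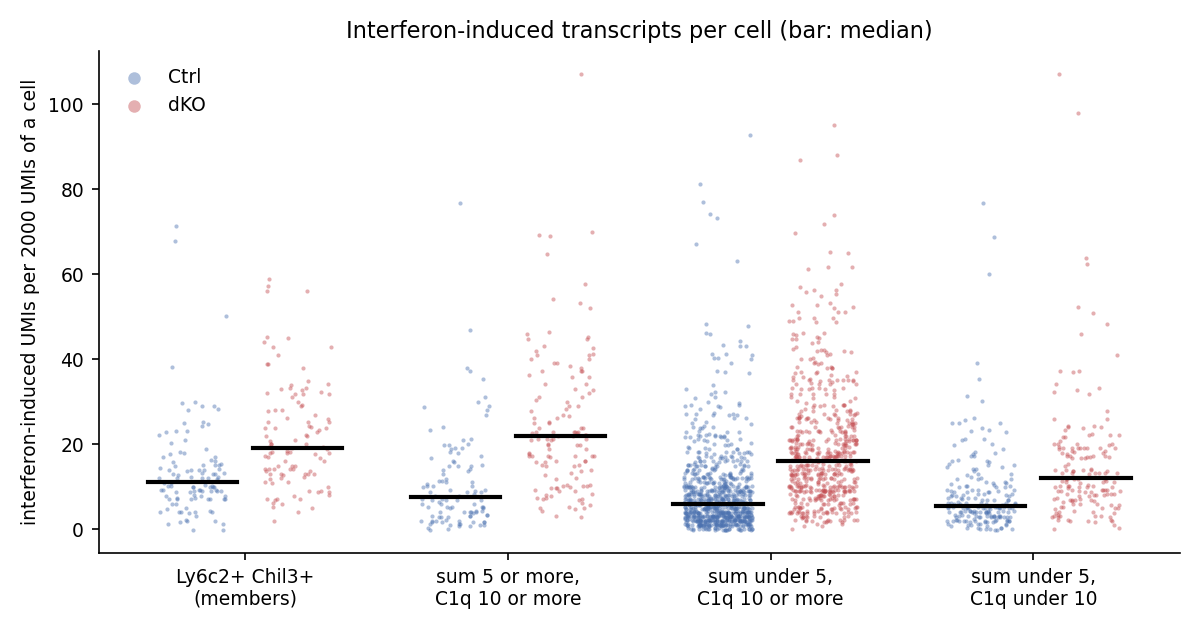
UMIs of the 42 interferon-induced genes per 2000 UMIs in each cell of the 4 gated sets (monocytes, cells with both the Ly6c2 plus Chil3 sum and C1q, C1q only, neither), by library; the bar is the median. In each set the dKO median is higher, 19 against 11 in monocytes and 16 against 6 in cells with C1q only, and the points overlap.

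The interferon genes were higher in dKO members of each kind, whichever gene had met the rule. Their sum went from 7885 to 11636 CPM where Ly6c2 alone was reached, from 4686 to 7469 CPM where Chil3 alone was reached, from 7048 to 10684 CPM where each was reached and from 4683 to 10595 CPM where only the sum was. Over all members it was 6286 CPM in Ctrl and 10306 CPM in dKO. Ly6c2, which encodes a small surface protein, stood at 900 CPM in Ctrl and 1244 CPM in dKO members, a log2 ratio of 0.47 (0.34 to 0.60), and Chil3 at 1953 and 1558 CPM, a log2 ratio of -0.33 (-0.43 to -0.22). Both counts were used to choose the members.

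Several genes outside the interferon list were among the furthest up. Slamf7, a surface receptor of the SLAM family that activates macrophages, gave 44 UMIs in 26 Ctrl members and 160 UMIs in 62 dKO members, a log2 ratio of 2.01 (1.52 to 2.52). After thinning it was found in 8 of 111 and 27 of 108 members, and in none of the FAPs of either library. Clec2d, a ligand of a natural killer cell receptor, went from 22 to 88 UMIs with a log2 ratio of 2.14 (1.46 to 2.89). Acod1, which makes the anti-inflammatory metabolite itaconate, went from 63 to 185 UMIs with a log2 ratio of 1.70 (1.28 to 2.13), but in only 16 and 26 members, and it lay between 1.49 and 2.41 over the alternatives. Fgl2, a fibrinogen-like protein with effects on coagulation and immunity, went from 56 to 166 UMIs (log2 1.71), and Fnip2, a partner of folliculin, from 80 to 199 UMIs (log2 1.46). Slamf7 had log2 ratios of 1.01, 0.92 and 0.65 in cells with both the sum and C1q, with C1q only and with neither. In the same order Clec2d was at 1.39, 0.86 and 0.62, Acod1 at 2.33, 0.91 and 0.10, and Fgl2 at 1.23, 1.33 and 0.95. Fnip2 had log2 ratios of 0.12 (-0.22 to 0.46) in the cells with both the sum and C1q, 0.32 in those with C1q only and 0.19 in those with neither. The high-affinity IgG receptor gene Fcgr1, which the gate used, had a log2 ratio of 1.11 (0.84 to 1.38). In the other sets, in the order above, Fcgr1 was at 1.12, 0.74 and 0.42.

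All tested genes of class I antigen presentation had ratios above 1, against 55.2% of all genes. Of 10 class I pathway genes tested, 4 were at least 1.5-fold higher and none lower, against 8.13% and 3.28% of all genes, with a median log2 ratio of 0.45. Without the granule-bearing cells 3 of 9 were higher, and the median was 0.43. H2-K1, a class I heavy chain, gave 823 and 1125 UMIs, a log2 ratio of 0.60 (0.46 to 0.73), while H2-D1 had 0.26 (0.14 to 0.38) and the shared light chain gene B2m 0.44 (0.35 to 0.53). Tap1, the peptide transporter, had 0.67 (0.19 to 1.15). The class I heavy chain genes are similar in sequence, and how reads that match more than 1 of them were counted is uncertain.

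The class II genes did not hold a direction. Of 6 tested, 2 were at least 1.5-fold higher and none lower (8.13% and 3.28% over all genes), with a median log2 ratio of 0.57. Without the granule-bearing cells 1 was higher and 1 lower, and the median was 0.46. H2-Aa gave 479 and 704 UMIs, a log2 ratio of 0.70 (0.53 to 0.87), and H2-Ab1 468 and 722 UMIs, a log2 ratio of 0.77 (0.60 to 0.94). A single dKO cell held 244 of the 704 H2-Aa UMIs, and a dKO cell also held 70 of 71 UMIs of Ccr7, a gene of migrating dendritic cells. Where members were chosen by Chil3 alone, the class II median was -0.71, H2-Aa was at -0.71 and H2-Ab1 at -0.92. The mix of Ly6c2-high and Chil3-high members, whose class II levels differ several-fold, was 22 and 37 in Ctrl and 35 and 24 in dKO, and its part in the class II difference was not tested.

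Cytokine and mediator genes were mixed. Of 9 tested, 5 were at least 1.5-fold higher in dKO and 1 lower, against 8.13% and 3.28% of all genes, with a median log2 ratio of 0.69. Il1rn, the natural antagonist of the interleukin-1 receptor, gave 129 and 286 UMIs, a log2 ratio of 1.29 (0.99 to 1.60), in 39 and 40 members. Il1b, the agonist, gave 929 and 1073 UMIs, a log2 ratio of 0.35 (0.22 to 0.48), under 1.5-fold. Il10, an anti-inflammatory cytokine, went from 25 to 75 UMIs, a log2 ratio of 1.73 (1.06 to 2.44), and 1 dKO cell held 32.0% of its UMIs. With C1q below 20 UMIs allowed, Il10 was at 0.34. Tnf, a proinflammatory cytokine, had 0.69 (0.23 to 1.16) from 67 and 98 UMIs. Over the alternatives Tnf lay between 0.53 and 1.81, Il1rn between 1.04 and 1.97 and Il1b between 0.18 and 0.84, so Il1b did not always stay under 1.5-fold. Immediate early genes, which cells also switch on while tissue is dissociated, also had a median above that of all genes (0.05). Of 13 tested, 3 (Fosb, Jun and Atf3) were at least 1.5-fold higher and 1 lower, 10 had a ratio above 1, and the median was 0.40. Without the granule-bearing cells 2 of these genes were higher and 1 lower, and their median was 0.36. Their part in the cytokine and chemokine values was not tested. The 14 tested genes of the inflammatory set that the study followed had a median of 0.34, with 4 (28.6%) at least 1.5-fold higher and 1 (7.14%) lower. The study applied that set to these libraries, and it is not taken as independent evidence of its direction.

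Among 12 tested chemokine genes, 4 were at least 1.5-fold higher and 1 lower, against 8.13% and 3.28% of all genes, with a median of 0.32. Without the granule-bearing cells 3 were higher and 1 lower, and the median was 0.25. Ccl2, the main CCR2 ligand, was level, with 861 and 805 UMIs and a log2 ratio of 0.05 (-0.09 to 0.19). Over the alternatives Ccl2 lay between -0.11 and 0.73, so it was not level under all of them. Its relatives Ccl7 and Ccl12 were higher, from 528 to 720 UMIs with 0.59 (0.43 to 0.76) and from 72 to 157 UMIs with 1.27 (0.86 to 1.69). Ccl3, a ligand of CCR1, gave 115 and 254 UMIs with a log2 ratio of 1.29 (0.96 to 1.62), and Ccl4 547 and 721 UMIs with 0.54 (0.38 to 0.71). Cxcl1, which attracts neutrophils, was the lower gene, with 234 and 102 UMIs and a log2 ratio of -1.05 (-1.40 to -0.71). It was found in 21 Ctrl and 23 dKO members, and the top 3 Ctrl cells took 65.4% of the Ctrl UMIs. A single dKO cell held 58 of the 157 Ccl12 UMIs, and over the alternatives Ccl12 lay between 0.61 and 1.85 and Ccl3 between 0.89 and 1.96. Raising the Ly6c2 and Chil3 threshold to 10 gave -0.40 for Cxcl1 and 0.38 for Ccl7, and allowing C1q below 20 gave 0.37 for Ccl7.

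The chemokine gene Ccl5, which the study followed between cells, was also read in the monocytes. It gave 23 UMIs in 9 Ctrl members and 66 UMIs in 6 dKO members, and with under 100 UMIs it was not in the counts above. In dKO, 3 cells held 90.9% of it, so its ratio of 3.17 (1.95 to 5.34) rested on few cells. Tgfb1, the fibrosis-driving growth factor that the study also followed, gave 197 and 166 UMIs, a log2 ratio of -0.10 (-0.41 to 0.20) that includes no change, and its values over all alternatives lay between -0.25 and -0.08. Ccr2 was level at 350 and 352 UMIs, a log2 ratio of 0.15 (-0.07 to 0.37). Ccr1 was at 274 and 299 UMIs, a log2 ratio of 0.27 (0.03 to 0.51).

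Of the 7 marker genes, Slpi and Clec4e were past 1.5-fold in dKO. Slpi gave 641 and 880 UMIs, a log2 ratio of 0.60 (0.45 to 0.75), and Clec4e 666 and 940 UMIs, a log2 ratio of 0.64 (0.50 to 0.79). Over the alternatives Slpi lay between 0.54 and 0.97 and Clec4e between 0.54 and 0.77, so neither stayed past 1.5-fold throughout. Vcan gave 651 and 438 UMIs, a log2 ratio of -0.43 (-0.61 to -0.25), and F10 217 and 229 UMIs, a log2 ratio of 0.22 (-0.05 to 0.50). Of 17 tested genes typical of classical monocytes, 1 (5.88%) was at least 1.5-fold higher and 5 (29.4%) lower, against 8.13% and 3.28% of all genes, with a median of -0.22. Without the granule-bearing cells 3 were lower and the median was -0.09.

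The genes furthest down in dKO monocytes were mostly neutrophil genes, held by the granule-bearing cells. Ngp gave 1094 UMIs in Ctrl and 1 in dKO, Camp 794 and 1, and Ltf 399 and 0. S100a9 gave 4590 and 126 UMIs, a log2 ratio of -5.04 (-5.31 to -4.79), and without the 7 Ctrl cells its log2 ratio was 2.42. In dKO, 1 member held 96 of the 126 S100a9 UMIs. Lcn2, an iron-siderophore-binding defence protein, went from 518 to 18 UMIs with -4.70 (-5.47 to -4.03), and was at -0.85 without those cells. The sign of the S100 alarmins was thus set by 7 of 112 cells. Ifitm6 followed them too, at -1.01 with and -0.05 without. Mgp, a matrix calcification inhibitor of stromal cells, and Cx3cr1, the fractalkine receptor of nonclassical monocytes, were also among the lowest, and few cells carried them. In Ctrl, 1 cell held 96 of 132 Mgp UMIs and 3 cells held 81.5% of the Cx3cr1 UMIs.

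Other genes were lower in dKO monocytes without the granule-bearing cells as well. Lyz2, the lysozyme of myeloid cells, gave 3680 and 2154 UMIs, a log2 ratio of -0.63 (-0.71 to -0.55), and -0.61 without them. Fn1, the matrix protein fibronectin, gave 1156 and 546 UMIs, a log2 ratio of -0.94 (-1.09 to -0.79), and -0.99 without them. Hp gave 315 and 134 UMIs, a log2 ratio of -1.09 (-1.39 to -0.79), and -0.83 without them. Cybb, the catalytic subunit of the phagocyte oxidase, gave 939 and 513 UMIs, a log2 ratio of -0.73 (-0.89 to -0.57), and -0.60 without them. The oxidase partners Cyba, Ncf1 and Ncf4 did not pass 1.5-fold. Serpinb2, an inhibitor of plasminogen activators, had -1.29 (-1.67 to -0.93) and -0.41 where C1q was held below 5. It was found in 11 Ctrl and 6 dKO members, and the top 3 cells took 65.7% and 90.6% of its UMIs.

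The counts in the lists that follow are to be read against the 8.13% of all genes that were at least 1.5-fold higher and the 3.28% that were lower. None of the 20 respiratory chain genes passed 1.5-fold, with a median of -0.14, and of 15 glycolysis and hypoxia genes 1 was higher and none lower, with a median of -0.05. Of 77 ribosomal protein genes, none was higher and 1 lower, with a median of -0.18, and 1 (1.30%) had a ratio above 1, against 55.2% of all genes. Their summed level was 165991 CPM in Ctrl and 146194 CPM in dKO. The 6 iron and haem genes had none past 1.5-fold, and of the 10 lysosomal genes 1 was lower. Thbs1, by far the most counted leading gene with 4522 and 3912 UMIs, had a log2 ratio of -0.06 (-0.13 to 0.00), and Apoe had 0.45 (0.37 to 0.53). Apoe was at -0.34 where the Ly6c2 and Chil3 sum was lowered to 3, so its direction did not hold. Spi1, the transcription factor PU.1 that defines the myeloid lineage, was at 376 and 388 CPM, and Cebpb at 1650 and 1658 CPM.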

How the data were processed

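Single-cell RNA was measured in 1 Ctrl and 1 dKO library. The authors deposited, per library, a matrix of raw UMI counts per gene and cell barcode, made from 10x Chromium reads aligned to mm10. The file header names Cell Ranger 3.0.2, while the submitters' processing notes list version 7.0.0 of it. They also list Seurat, at 4.3.0. The 24984 features hold 0 mitochondrially encoded genes, so no mitochondrial filter could be applied.

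Cells with at least 500 genes were kept and gated by the rule given in the text. Counts were summed over members, divided by their total and given as CPM. Intervals are exact Poisson (levels), Clopper-Pearson (shares), Newcombe (differences of shares) and exact conditional binomial (ratios), at 95%. Genes with at least 100 UMIs over both member sets were compared, and a ratio of 1.5 was the mark in either direction. For shares of cells, each cell was thinned to 2000 UMIs, with FAPs as the reference type for free RNA. Scrublet called 7 and 14 doublets and was taken not to have worked. All cells were kept, and an alternative left out the 7.5% with the highest scores, 325 and 250 cells, among them 9 and 7 members. The libraries shared 7 barcodes, of which 0 belonged to members. The intervals were tested on simulated counts drawn without spread between cells. That test cannot show how they hold where a few cells carry a gene.

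Genes were named by a fixed rule. It took the 15 highest and 10 lowest by the ratio of members to other gated cells in the less extreme library, the 10 furthest up and down by interval bound, listed genes past 1.5-fold with the highest counts, and Yy1, Tgfb1 and Ccl5. Some genes that the rule names are not reported here. Further members of the lists are named where they show what did not pass. The members and the gene lists were chosen with earlier results of these data known. Promoter sequences are from RefSeq on GRCm38.p6. Alternatives changed the thresholds of the rule, the gene and UMI minimums, the scaling and the members left out. Python 3.11.15, numpy 2.4.6, scipy 1.17.1, pandas 2.3.3, scanpy 1.11.5 and matplotlib 3.10.9 were used.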

Additional observations from a re-analysis of the deposited data

Results flagged for a closer look

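In 3 of the genes followed, the dKO over Ctrl difference was past 1.5-fold in the monocytes and past 1.5-fold in the opposite direction in the gated cells with C1q but without the Ly6c2 and Chil3 sum. Slpi had a log2 ratio of 0.60 in monocytes, with 0.54 to 0.97 over the alternatives, and -1.73 in those cells. Ifitm6 had -1.01 in monocytes and 0.85 in those cells, and was near 0 in monocytes without the granule-bearing cells. Col1a1, a collagen gene of stromal cells, had -1.30 in monocytes, where few cells carried it, and 0.78 in those cells. Each set had 1 library per group, and the difference between the sets was not tested.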

How the results depend on the processing

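With 1 library per group no spread between animals can be given, and the counts limit what can be seen to genes with about 100 UMIs over 222 cells. No paired analysis was possible because each group had 1 library. Of 1651 values under alternatives for 116 single genes and lists, 1393 stayed within the counting interval of the value reported, 245 moved out of it, and 13 of values past 1.5-fold changed sign. A further 65 values changed sign where the reported value was under 1.5-fold. There were 16 settings (11 for the shares), of which 3 were chosen after seeing the data, namely the 2 that left out granule-bearing or collagen-holding members and the one on Chil3 alone. The share differences lay between -0.027 and 0.982 points of kept cells and between -0.281 and 2.80 points of gated cells.

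The count of genes higher in dKO was 42 of 2621 tested at 2-fold, 134 of 1764 with Chil3 alone and 621 of 5640 with at least 30 UMIs per gene, and that of lower genes was 25, 57 and 479, so fewer genes were tested with Chil3 alone and more at 30 UMIs. The class II median was -0.71 with Chil3 alone, 0.032 at a sum of at least 10, 0.29 at a sum of at least 3, 0.83 without the collagen-holding members, 0.27 with thresholds per 10000 UMIs and 0.95 without the highest doublet scores. The chemokine median was 0.55 with C1q under 5, 0.49 with Chil3 alone, 0.48 at a sum of at least 10, 0.18 without members holding at least 2 neutrophil genes and 0.39 with thresholds per 10000 UMIs. The inflammatory set's median was 0.52 with Chil3 alone and 0.53 at a sum of at least 3. Signs changed, among others, with Chil3 alone for the class II median and for H2-Aa (-0.71), H2-Ab1 (-0.92), H2-Eb1 (-1.31), Cd74 (-0.37), Ifit3 (-0.21), the nonclassical monocyte median (0.40) and both share differences. At a sum of at least 3 they changed for, among others, Apoe (-0.34), Spp1 (-0.62) and the macrophage median (-0.25). Among values past 1.5-fold they changed without members holding at least 2 neutrophil genes for Ifitm6 (0.041), Mmp8 (0.34), S100a8 (0.68), S100a9 (0.33) and the neutrophil median (0.68), and without those holding at least 5 for Retnlg (1.61), S100a8 (1.67), S100a9 (2.42) and the neutrophil median (2.04). In these last settings fewer neutrophil-gene UMIs were left by construction, and for the others the cause was not tested.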

Other observations

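Several further gene groups were counted in the monocytes, to be read against the 8.13% of all genes that were at least 1.5-fold higher and the 3.28% that were lower. Of 10 tested NF-kB feedback genes, 2 were at least 1.5-fold higher in dKO and none lower, with a median log2 ratio of 0.42. Nfkbiz, an atypical member of the NF-kB inhibitor family, gave 198 and 288 UMIs, a log2 ratio of 0.68 (0.42 to 0.95). Nfkbia, the classical inhibitor, gave 810 and 965 UMIs, a log2 ratio of 0.40 (0.26 to 0.53). Of 5 alternative activation genes, 2 were higher and 1 lower. Arg1, the lower gene, gave 149 and 33 UMIs, a log2 ratio of -2.03 (-2.62 to -1.48). It was found in 14 Ctrl and 10 dKO members, and the top 3 cells took 63.1% and 72.7% of its UMIs. Socs3, an inhibitor of cytokine receptor signalling, gave 84 and 155 UMIs, a log2 ratio of 1.03 (0.64 to 1.43), and Il10 was the other higher gene. Of 14 transcription factor genes, 2 were higher, among them Id3 at 0.86. Of 9 chemoattractant receptor genes, 2 were higher, C5ar1 at 0.59 and Ptafr at 0.74, and Cx3cr1 was lower. Of 11 heat shock genes, Hspb1 was lower at -2.04 (-2.39 to -1.71), and 3 Ctrl cells held 64.2% of its UMIs. Over the alternatives it lay between -2.67 and -1.30.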
